A study of Mus musculus with 18 samples.

Results

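The red blood cell miRNAs mmu-miR-451a, mmu-miR-144-3p, mmu-miR-144-5p and mmu-miR-486a-5p (the species prefix is left out from here on) were followed through small RNA libraries of mouse kidney as a readout of blood left in the tissue. They were chosen by name from the deposited table and are 4 of its 735 distinct mouse miRNA names. miR-486a-5p stood on 2 rows with equal counts, which were counted once, and all 4 passed the filter on low counts. Control kidneys came from C57BL/6J mice on 0.9% saline. Kidneys with diabetic nephropathy (DN) came from C57BL/KsJ mice on the same saline, and those called treated came from C57BL/KsJ mice with DN that received 10 mg/kg/day of the sesquiterpene germacrone. Each group had 6 libraries, from 3645173 to 7239343 counts each. Since all controls were of one strain and all diabetic mice of the other, strain and disease cannot be told apart wherever control is compared. The sources used here do not give the age, the mutation behind the diabetes, or whether blood was flushed from the kidneys. Nothing in the labels ties each library to its own animal, and p-values therefore reflect the spread between these samples alone, which may be technical.

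Mature mammalian red cells have no nucleus and make no new transcripts, but they keep the miRNAs made by their precursors. miR-144 and miR-451a are cut from one primary transcript, which the transcription factor GATA1 switches on as erythroid cells mature. miR-451a is known for skipping Dicer: its short hairpin is cut by Argonaute 2 instead. In erythroid cells, miR-451a represses Ywhaz, a 14-3-3 protein, and miR-144 is known to repress Nfe2l2, the regulator of the antioxidant response. miR-486 lies in Ank1, the gene of the red cell membrane protein ankyrin, and is also made in skeletal and heart muscle. Because intact red cells hold so much miR-451a, its level is used to judge haemolysis in plasma and blood carried into tissue samples.

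The mature sequences are shown with the seed, bases 2 to 8, in capitals, since the members are read as one signal although their seeds differ. For 3 of the 4 members a sequence was found by name in RefSeq on GRCm38.p6.
miR-451a: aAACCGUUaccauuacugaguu
miR-144-3p: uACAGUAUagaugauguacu
miR-144-5p: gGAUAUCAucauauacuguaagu
The 3 seeds are all different. The hairpins are shown next with the mature bases in capitals, because the way each is cut bears on how its products are compared.
Mir144: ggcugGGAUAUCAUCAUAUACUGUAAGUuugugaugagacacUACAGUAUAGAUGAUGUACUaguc
Mir451a: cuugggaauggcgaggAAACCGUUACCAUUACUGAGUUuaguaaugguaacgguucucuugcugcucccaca
In Mir144 the mature miRNAs fill bases 6 to 28 and 43 to 62, one on each arm. In Mir451a the single mature miRNA fills bases 17 to 38, and its bases 2 to 17 are the exact complement of hairpin bases 40 to 55, so it runs up one arm and into the loop. Mir144 is at chr11:78073005-78073070 and Mir451a at chr11:78073170-78073241, both on the plus strand and 99 bases apart. By GENCODE M21, on the same build, they overlap no coding gene and lie between Flot2 and Eral1. The miR-486a hairpin, annotated as Mir486, is at chr8:23142555-23142682 on the plus strand, in an intron of Ank1. The miR-486b hairpin, annotated as Mir3107, overlaps it on the minus strand at chr8:23142573-23142662. The row of miR-486a-5p held values that were not whole in 13 of 18 libraries, and the other members held whole numbers in all 18. Levels of miR-486a-5p below are those of 1 row, so the sum over both rows is higher, while group differences and correlations do not depend on this.

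DN 2 and DN 3 stood apart over all 619 entries tested, and control 2 did so only slightly. The median correlation of log2 CPM (counts per 1000000 of the library total after TMM scaling) with the other libraries of the group was 0.946 in control 2, 0.896 in DN 2 and 0.926 in DN 3, against 0.958 to 0.973 in the other 15. Leukocyte miRNAs, summed over 8 tested markers, reached 28040 CPM in DN 2, while the rest of DN held 1766 to 2566. The kidney miRNA miR-192-5p was at 3880 CPM in DN 2, while all other libraries held 10760 to 35840. Summed over 8 tested kidney markers, DN 2 held 66390 CPM and the others 138800 to 272300. Group differences below are given also without these libraries where that turned the direction or moved the value by over 1.5 times.

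miR-451a was by far the most abundant member. It made up 0.286 ± 0.0809% of counts in control, 0.239 ± 0.0703% in DN and 0.267 ± 0.126% in treated libraries (SD, n = 6 each). Among 532 distinct entries tested it ranked between 37th and 75th, with a median of 47. Ligation and PCR favour some sequences in small RNA libraries, so an order between miRNAs is one of reads and not of molecules. In bulk kidney RNA, fewer red cells and less RNA per cell cannot be told apart.

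The levels of miR-451a overlapped between the groups. In control libraries it ran from 1210 CPM over a median of 2881 to 3400. In DN it ran from 1110 over 2454 to 3328, and in treated libraries from 1115 over 2685 to 4568 CPM. Each group held 1 library near the bottom, control 2, DN 2 and treated 3, and the highest were treated 5 and treated 1 at 4568 and 4265 CPM, above every control and DN library. The spread within a group, 2.81-fold in control, 2.997-fold in DN and 4.10-fold in treated libraries, was larger than any difference between the group means of 2693, 2396 and 2869 CPM. Counting error was small beside this: the lowest count, 3553 in treated 3, has an exact 95% Poisson interval of 3437 to 3672.

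miR-144-3p, the guide arm of the neighbouring hairpin, was lower and more variable. It ran from 27.8 CPM over a median of 125 to 243.5 in control, from 43.5 over 284 to 590 in DN, and from 98.3 over 240 to 467 in treated libraries. DN was split: DN 1, DN 4, DN 5 and DN 6 lay above every control, at 260 to 590 CPM, while DN 2 and DN 3 lay at 43.5 and 46.1, below 5 of the 6 controls. In the treated group 3 libraries lay above every control.

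miR-144-5p, the other arm of that hairpin, ran from 15.5 CPM over 70.7 to 104 in control, from 21.2 over 101 to 168 in DN, and from 50.9 over 104 to 203 in treated libraries. In total, 2 DN and 3 treated libraries lay above every control. Replicates 2 and 3 were the lowest libraries of every group. They held 15.5 and 48.0 CPM in control, 21.2 and 45.0 in DN, and 59.7 and 50.9 in treated libraries. The cause of this shared pattern was not tested. The lowest member count of all, 114 reads in control 2, has an exact Poisson interval of 94 to 137, or 12.8 to 18.6 CPM. This covers counting error only, since PCR reads without molecular identifiers are not independent molecules.

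miR-486a-5p did not share this order. It ran from 219 CPM over 335.5 to 564 in control, from 96.9 over 248 to 692 in DN, and from 81.6 over 211 to 453 in treated libraries. Its highest libraries were DN 3 and control 2, both of which were low in miR-144-3p. In the treated group 3 libraries lay below every control. The star arm, miR-486a-3p, had equal counts to miR-486b-3p and ranged from 0 to 6.56 CPM.

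**Figure D1:**
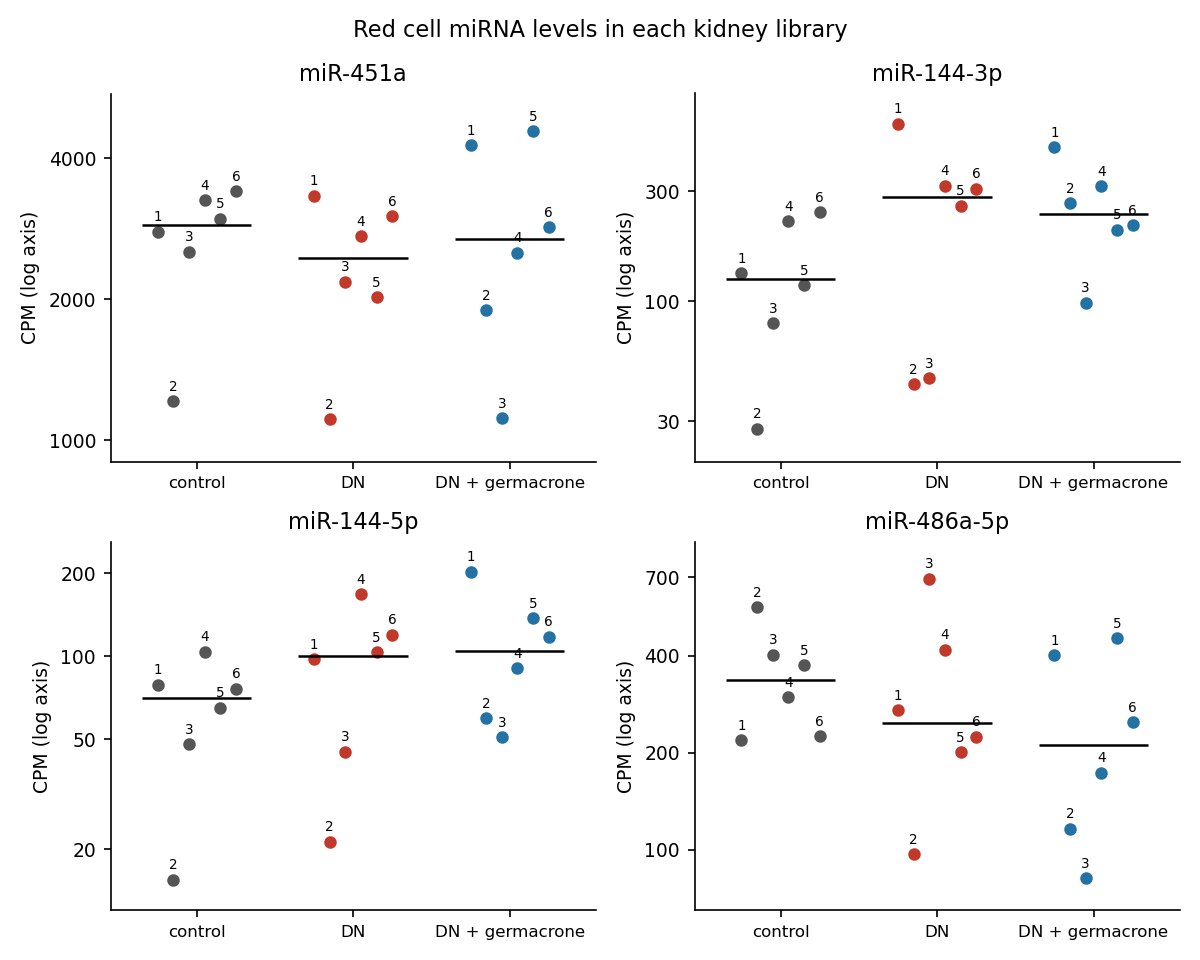
CPM (log axis) of the 4 red cell miRNAs in each kidney library by group, with the replicate number above each point and the group median as a line. Control 2, DN 2 and treated 3 are the lowest in their groups for miR-451a, at 1210, 1110 and 1115 CPM, whereas control 2 and DN 3 are the highest in their groups for miR-486a-5p.

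DN against control asked whether the diabetic kidneys held another level of red cell miRNAs. By edgeR's quasi-likelihood test with Benjamini-Hochberg adjustment over 619 entries, 0 of the 4 members passed, beside 0% of all entries, and in no member were the groups separated, beside 0% of all entries. At an unadjusted p under 0.05 there were 0 of 4 members, beside 7.59% of all entries. miR-451a had a log2 fold change (log2FC) of −0.17 (SE 0.322, 95% interval −0.84 to 0.50, adjusted p = 0.935, DN above the control median in 2 of 6). Without DN 2 it was −0.0018 (SE 0.305, adjusted p = 0.997). The interval with all libraries spans 0.558-fold to 1.42-fold, so these libraries do not exclude changes within that range.

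miR-144-3p had a log2FC of 0.93 in DN against control (SE 0.568, interval −0.26 to 2.12, adjusted p = 0.706, above the control median in 4 of 6). The value was 1.15 without DN 2 (adjusted p = 0.379) and 1.21 without control 2, DN 2 and DN 3 (adjusted p = 0.0764), and the adjusted p ranged from 0.0611 to 0.914 over 30 alternatives. The log2FC was 0.52 for miR-144-5p (SE 0.461, adjusted p = 0.820, above in 4 of 6). It was −0.13 for miR-486a-5p (SE 0.443, adjusted p = 0.959, above in 2 of 6). For miR-486a-5p it was 0.12 without control 2 or without DN 2, and −0.51 without DN 3. With the replicate number as a block in the fit, the SE fell to 0.278 for miR-144-5p, 0.425 for miR-144-3p and 0.241 for miR-451a. It rose to 0.487 for miR-486a-5p. Both arms of Mir144 therefore had positive values and miR-451a and miR-486a-5p slightly negative ones, with none past the test.

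Treated against DN asked whether germacrone went with another level. Again 0 of 4 members passed by edgeR, beside 0% of all entries, and 0 of 4 had an unadjusted p under 0.05, beside 3.72% of entries. miR-451a had a log2FC of 0.26 (SE 0.322, interval −0.41 to 0.93, adjusted p = 0.895, treated above the DN median in 4 of 6), which was 0.073 without DN 2 and 0.050 without control 2, DN 2 and DN 3. miR-144-5p had 0.25 (SE 0.460, adjusted p = 0.926, 3 of 6). It was 0.023 without DN 2, 0.11 without DN 3, −0.058 without treated 1 and −0.15 without control 2, DN 2 and DN 3. miR-486a-5p had −0.37 (SE 0.443, adjusted p = 0.895, 3 of 6). For miR-486a-5p the value was −0.64 without DN 2, 0.015 without DN 3 and −0.18 without control 2, DN 2 and DN 3. The fitted log2FC of miR-144-3p was 0.00035 (interval −1.19 to 1.19, adjusted p = 0.9995, 2 of 6). It was 0.0028 without control 2, −0.23 without DN 2 or without DN 3, −0.27 without treated 1 and −0.51 without control 2, DN 2 and DN 3. This comparison shares the DN libraries with that of DN against control.

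Treated against control asked how far treated kidneys differed from those of control mice. By edgeR 0 of 4 members passed, beside 0% of all entries, with 0 of 4 at an unadjusted p under 0.05, beside 19.5% of entries, and 0 of 4 separated, beside 5.17% of entries. miR-144-3p had a log2FC of 0.93 (SE 0.568, interval −0.26 to 2.12, adjusted p = 0.383, above the control median in 5 of 6). miR-144-5p had 0.77 (SE 0.461, interval −0.19 to 1.74, adjusted p = 0.366, 4 of 6). miR-451a was at 0.091 (SE 0.322, adjusted p = 0.901, 2 of 6), −0.0012 without control 2 and −0.075 without control 2, DN 2 and DN 3. miR-486a-5p was at −0.50 (SE 0.443, interval −1.42 to 0.43, adjusted p = 0.581, 2 of 6). It was −0.27 without control 2, −0.29 without treated 3 and −0.33 without control 2, DN 2 and DN 3. The order of the 4 members from highest to lowest log2FC was thus miR-144-3p, miR-144-5p, miR-451a and miR-486a-5p, with overlapping intervals.

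**Figure D2:**
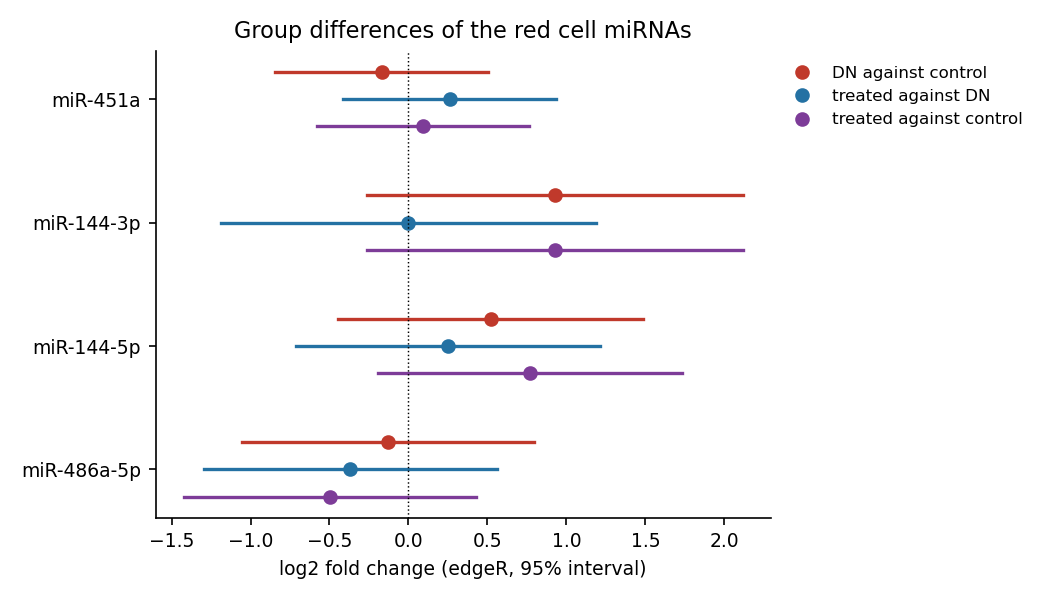
Log2 fold change from edgeR (x axis) with its 95% interval for the 4 red cell miRNAs in the 3 group comparisons. Every interval crosses 0, and those of miR-144-3p are the widest, from −0.26 to 2.12 in DN against control.

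Because miR-144 and miR-451a leave the same primary transcript, their ratio was taken within each library, where no scaling factor enters. It is given as a description, without a test, since both terms are members. miR-144-3p stood to miR-451a at 0.0230 to 0.0716 reads per read in control, with a median of 0.0434. The ratio was 0.0211 to 0.177 with a median of 0.109 in DN, and 0.0447 to 0.141 with a median of 0.0988 in treated libraries. In DN 4 libraries and in the treated group 5 lay above every control, all 6 treated libraries lay above the control median, DN 2 fell among the controls and DN 3 below them.

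The mean log2 ratio of miR-144-3p to miR-451a was −4.53 ± 0.637 in control, −3.68 ± 1.18 in DN and −3.46 ± 0.602 in treated libraries (SD, n = 6). miR-144-5p to miR-451a was −5.52 ± 0.464, −4.89 ± 0.691 and −4.71 ± 0.275 on the same scale, with 3 DN and 4 treated libraries above every control. Both arms of Mir144 thus stood higher against miR-451a in most DN and treated libraries. The ratio between the arms, miR-144-3p to miR-144-5p, ranged widely: control libraries lay between 1.67 and 3.19, DN between 1.02 and 6.03, and treated between 1.48 and 4.46.

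miR-486a-5p to miR-451a had a median of 0.108 in control, 0.0933 in DN and 0.0802 in treated libraries. Control 2 and DN 3 stood far above the rest of their groups, at 0.466 and 0.317, while the treated libraries stayed within 0.0612 and 0.0993. miR-486 is also a muscle miRNA, so the striated muscle markers are given beside this. Their summed level, over the 3 of 7 that passed the filter, was 83.5 CPM in control 2 and 58.4 CPM in DN 3, within the 78.6 to 299.6 of the controls and the 34.5 to 118 of DN. Single markers differed from that sum. miR-133a-3p was at 44.6 CPM in control 2, second to the 62.9 of control 4, and at 30.2 in DN 3, the highest of DN, while miR-1a-3p was the lowest of control in control 2, at 37.2 CPM, and at 26.4 in DN 3. The part of muscle RNA in these levels was not tested.

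**Figure D3:**
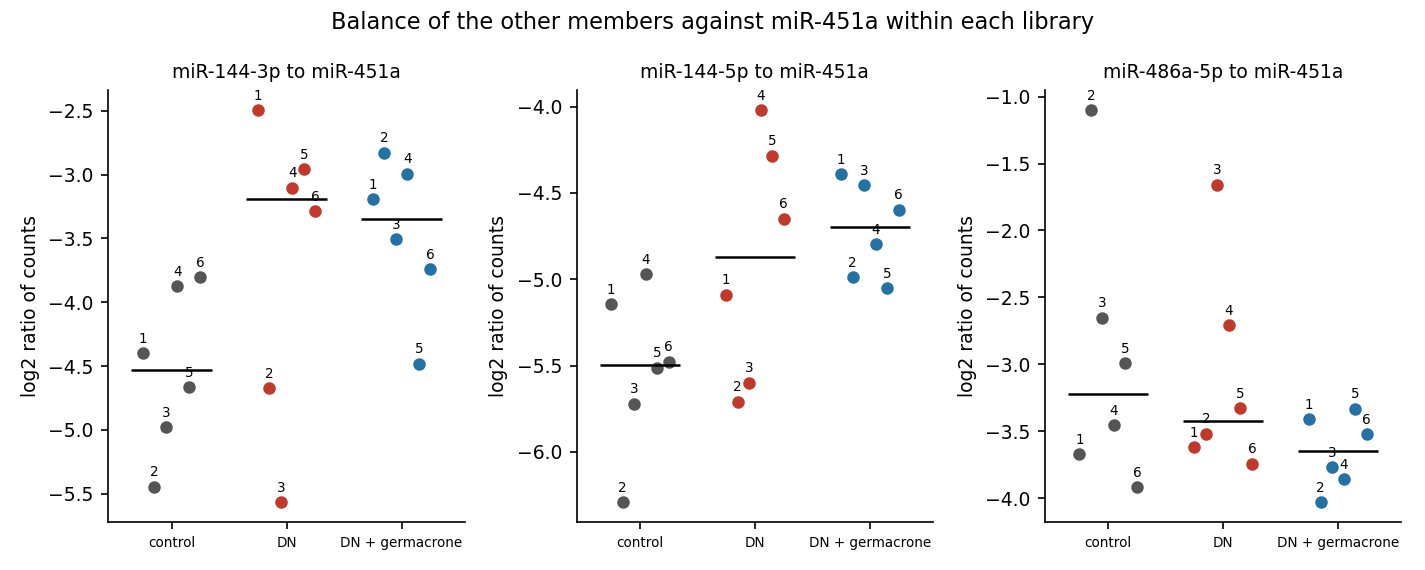
Log2 ratio of counts of miR-144-3p, miR-144-5p and miR-486a-5p to miR-451a in each library, with replicate numbers and group medians. Points of 4 DN and 5 treated libraries lie above every control for miR-144-3p, and control 2 and DN 3 stand apart for miR-486a-5p.

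Whether the members moved together was asked across all 18 libraries in log2 CPM, for 6 pairs, with permutation p-values adjusted over the 6. miR-144-3p and miR-144-5p were correlated at r = 0.88 (permutation p = 2e-05, the smallest these permutations can give, adjusted p = 0.00012, rho = 0.75, rho p = 0.0005, adjusted 0.003). Without control 2 and DN 2, the libraries farthest from the median, r was 0.76. miR-451a and miR-144-5p had r = 0.81 (permutation p = 0.00022, adjusted 0.00066, rho = 0.70, rho p = 0.00166, adjusted 0.00498), and 0.79 without DN 2 and treated 3. miR-451a and miR-144-3p had r = 0.68 (permutation p = 0.00392, adjusted 0.00784, rho = 0.50, rho p = 0.0350, adjusted 0.0701) and 0.62 without DN 2 and treated 3. Without control 2, DN 2 and DN 3 this last r was 0.43 (permutation p = 0.124, n = 15), while those of miR-144-3p with miR-144-5p and of miR-451a with miR-144-5p were 0.70 and 0.63 (permutation p = 0.00386 and 0.0091). miR-144-5p was thus related to both other products of the locus with and without these libraries, and the relation of miR-451a to miR-144-3p depended on them.

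These relations were also computed within each group of 6, where the exact permutation p was adjusted over all 18 tests. For miR-451a and miR-144-5p, r was 0.97 in control (adjusted p = 0.075), 0.84 in DN (0.138) and 0.93 in treated libraries (0.0333). For miR-451a and miR-144-3p, r was 0.96 in control (exact permutation, adjusted p = 0.0375), 0.80 in DN (0.115) and 0.68 in treated libraries (0.196). The direction was the same in each group, and the call after adjustment was not.

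miR-486a-5p was related to miR-451a only loosely when the libraries were pooled, at r = 0.46 (permutation p = 0.0580, adjusted 0.087, rho = 0.38, rho p = 0.119, adjusted 0.178). That value rested on 2 libraries, since r was 0.0093 without DN 2 and treated 3. Within treated libraries r was 0.98 (exact permutation p = 0.00278, adjusted 0.0333), in DN 0.57 (adjusted 0.267) and in control −0.79 (adjusted 0.115). Without control 2, DN 2 and DN 3, the pooled r was 0.81 (permutation p = 0.00062, n = 15). miR-486a-5p with miR-144-3p had r = −0.13 and with miR-144-5p r = 0.13 (permutation p = 0.625 and 0.602, adjusted 0.625 each; rho = −0.14 and 0.12, rho p = 0.566 and 0.624).

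**Figure D4:**
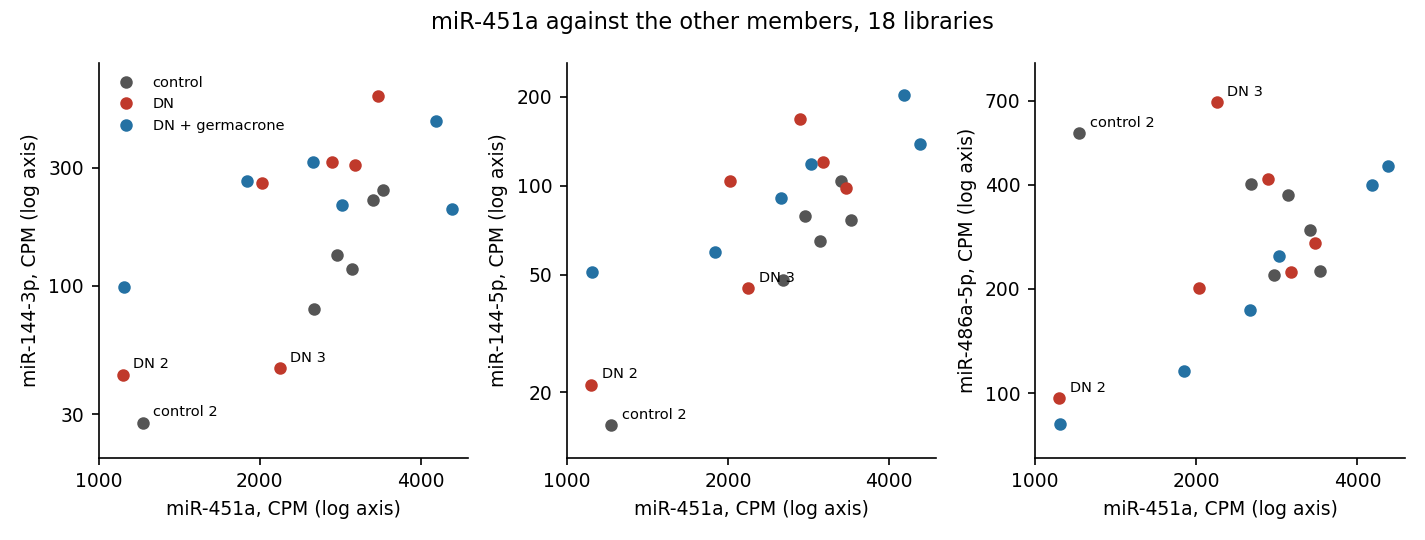
Levels (CPM, log axes) of miR-144-3p, miR-144-5p and miR-486a-5p against miR-451a in 18 libraries, colored by group. Points for both miR-144 arms climb with miR-451a (r = 0.68 and 0.81 in log2 CPM), while control 2 and DN 3 lie above the other libraries for miR-486a-5p.

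The ratio of miR-451a to miR-23a-3p, the reference used in plasma work because haemolysis is held to change it little, is the usual index of haemolysis in plasma. In these kidneys it was 0.171 to 0.382 in control, with a median of 0.316. It was 0.0710 to 0.488 with a median of 0.371 in DN, and 0.157 to 0.542 with a median of 0.373 in treated libraries. The difference in mean log2 ratio was 0.015 in DN against control (exact 2-sided permutation p = 0.994), 0.21 in treated against DN (exact p = 0.712) and 0.22 in treated against control (exact p = 0.483), with an adjusted p of 0.994 over the 3 comparisons for each. With 6 libraries against 6 the smallest p this test allows is 0.00216. Without DN 2, at 0.0710, the difference in DN against control was 0.42 (exact permutation p = 0.0909). That difference was −0.14 without control 2, −0.0058 without DN 3 and 0.35 without all 3 libraries (exact permutation p = 1, 0.957 and 0.111). In treated against DN it turned to −0.20 without DN 2 (exact permutation p = 0.593) and −0.28 without DN 2 and DN 3 (exact permutation p = 0.495). In treated against control it was 0.071 without control 2 (exact permutation p = 0.823). miR-23a-3p itself was at 15640 CPM in DN 2, where the other DN libraries held 6166 to 7752, and at 6713 to 10380 in control and treated libraries.

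A list of 21 other miRNAs held those known to be abundant in red cells or their precursors, and also miR-23a-3p, the reference of the ratio above, which is not there as a red cell marker. Of these, 20 names were in the table and 19 distinct entries were tested. By edgeR none of the 19 passed in any comparison, beside 0% of all entries. At an unadjusted p under 0.05 there were 2 of 19 in DN against control, beside 7.59% of all entries. Treated against DN had 1 of 19, beside 3.72%, and treated against control 4 of 19, beside 19.5%. miR-23a-3p itself had log2FC values of −0.11, −0.088 and −0.20. In DN against control 10 of 19 were higher, with a median log2FC of 0.038 beside 0.075 for all 619 entries. In treated against DN 8 of 19 were higher (median −0.015 beside −0.054), and in treated against control 9 of 19 (median −0.018 beside −0.0035). The 4 members had medians of 0.20, 0.13 and 0.43 in these comparisons. miR-16-5p, abundant in red cells but also in most tissues, averaged 4158 CPM over the 18 libraries and had log2FC values of 0.12, −0.14 and −0.018. miR-92a-3p, of the miR-17-92 cluster, was at −0.32, −0.37 and −0.68 (adjusted p = 0.864, 0.809 and 0.252). The 4 entries with an unadjusted p under 0.05 in treated against control went both ways. miR-210-3p and miR-363-3p were at 0.86 and 0.67, and miR-92a-3p and miR-484 at −0.68 and −0.56. Of these 19 entries, r with miR-451a over the 18 libraries is given for set markers only, as a description. It was 0.34 for miR-486a-3p, which reached at most 6.56 CPM, and 0.19 for miR-16-5p. It was −0.054 for miR-23a-3p and −0.26 for miR-92a-3p.

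White cell miRNAs, the other blood-borne signal in unsorted tissue, are given beside the red cell members. Their summed level, over 8 of 9 markers, was 3308 to 4428 CPM in control, with a median of 3903. It was 1766 to 28040 in the DN group and 2018 to 9426 in the treated group, with lower medians of 2055 and 2158. The 2 high ends were single libraries, DN 2 and treated 6. The second highest were 2566 CPM in DN, below every control, and 3521 CPM in the treated group. DN 2 had the highest white cell level and the lowest summed level of the 4 red cell members, 1272 CPM, where the rest of DN held 2583 to 4287. The low level was not particular to red cell members. DN 2 was also lowest for the summed kidney markers, at 66390 CPM, where all other libraries held 138800 to 272300. For the endothelial markers it was lowest at 8007 CPM, next to DN 3 at 8034. miR-223-3p, of neutrophils, macrophages and platelets, reached 5099 CPM in DN 2, where all other libraries held 43.5 to 197. It had r = −0.50 with miR-451a, which was lowest in DN 2, at 1110 CPM. miR-142a-3p, found in all blood lineages with a nucleus, had r = −0.21 (n = 18 libraries, both as a description). It too was highest in DN 2, at 1623 CPM, where all other libraries held 27.0 to 259. Neither r was computed without DN 2, so how far they rest on that library is not known. miR-122-5p, the abundant liver miRNA that also circulates in plasma, was at 5.58 to 118 CPM, with r = −0.11. The part of white cells, plasma or platelets in the levels of the members was not tested.

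**Figure D5:**
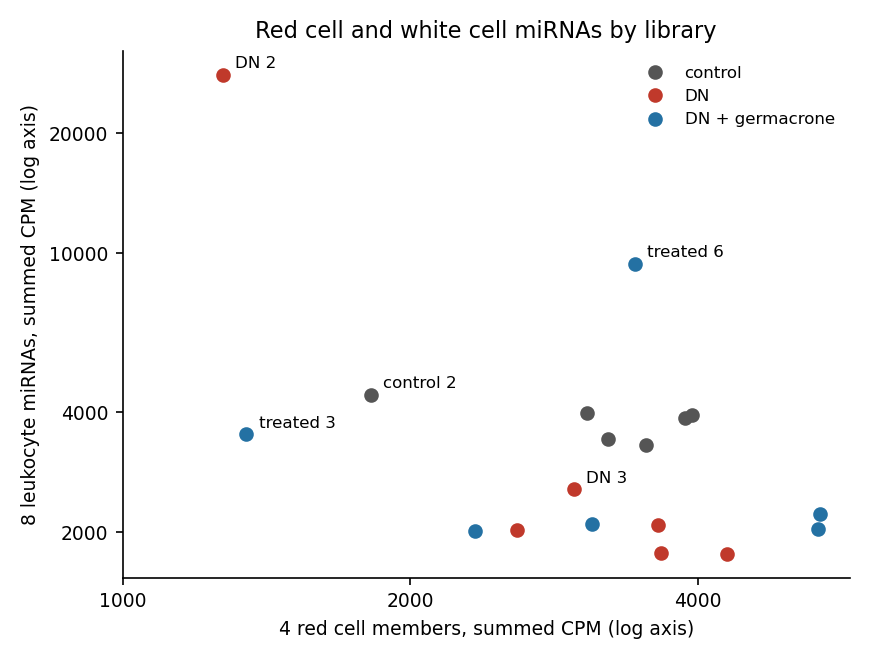
Summed CPM of 8 leukocyte miRNAs against summed CPM of the 4 red cell members (log axes), one point per library. DN 2 is highest for leukocyte miRNAs at 28040 CPM and lowest for red cell miRNAs at 1272 CPM.

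Of 433 other distinct mouse entries, those whose log2 CPM followed miR-451a most closely over the 18 libraries were miR-22-5p (r = 0.69, 317 CPM on average), miR-107-5p (0.66, 26.6 CPM), let-7k (0.61, 1.88 CPM), miR-190a-5p (0.56, 434 CPM) and miR-3105-3p (0.55, 16.2 CPM). miR-22-5p and miR-107-5p are the other arms of miR-22-3p and miR-107-3p, which are on the list of other red cell miRNAs. miR-126a-3p, the endothelial miRNA that platelets also carry, came 7th at r = 0.54. Its level lay between 7847 and 14870 CPM in control, between 5287 and 14570 in DN, and between 10460 and 16030 after treatment. The entries compared share libraries and depth. None of the 433 reached the 0.81 of miR-144-5p, but miR-22-5p lay above the 0.68 of miR-144-3p. The 0.46 of miR-486a-5p lay below miR-126a-3p and below the kidney miRNA miR-192-5p, which came 30th at r = 0.47.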

How the data were processed

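Small RNA reads of 18 mouse kidney libraries were counted by the authors. Per the labels' protocols, RNA was extracted with Trizol, libraries were made with a TruSeq Small RNA kit, and reads were cleaned of adapters, junk and other RNA classes with ACGT101-miR. Named in the submitters' processing notes are Trimmomatic 0.32, BWA, SAMtools and edgeR. Their roles, the genome build and the miRBase release: not given in the sources used here. Raw columns, as deposited, held estimated counts, with 75.7% of the values above 0 whole. The deposited normalized columns held a signal, equal to raw values multiplied by a factor for each library (0.664 to 1.43), and were not used further.

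Of 1534 entries, 350 had no name (0.0136% to 0.148% of counts) and were left out. Estimated counts were rounded, and 619 of 1184 named entries passed filterByExpr (minimum count 10, total 15). edgeR 4.0.16 in R 4.3.3 was fitted on all 18 libraries with group as the factor, TMM factors and the legacy quasi-likelihood test, with Benjamini-Hochberg adjustment over 619 entries and a threshold of 0.05. The code was tested on simulated data. SE and 95% intervals come from the working weights. Log2 CPM used a prior count of 2. Ratios used raw counts, and permutation tests used scipy 1.17.1 (exact, or 100000 resamples for 18 libraries). No 2 libraries of a group agreed within counting noise (smallest chi-square per degree of freedom 57.4).

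The members and lists were chosen with earlier results of these data known. Named besides the members were the 5 entries most correlated with miR-451a and set markers of each list. Alternatives were RLE factors, library size only, 2 other filters, DESeq2 1.42.0, limma-voom with sample weights, which changes both the test and the weight of each library (limma 3.58.1), a block on the replicate number, fits on the compared groups alone, equal rows collapsed, rows of one name summed, members left out of library sizes, miR-451a as a covariate, and libraries left out.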

Additional observations from a re-analysis of the deposited data

Results flagged for a closer look

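The log2 ratio of miR-451a to miR-23a-3p in DN 2 was −3.82, whereas the rest of DN lay between −1.71 and −1.04. The gap to the nearest of them was 0.757 of the range of the group, above Dixon's 95% critical value of 0.625. Of 30 sets of 6 libraries looked at in this way (the 4 levels and 6 ratios in 3 groups) this was the only one past that value, and chance alone would pass about 1 in 20. Both terms of the ratio moved in DN 2: miR-451a was at 1110 CPM, where the rest of DN held 2019 to 3328, and miR-23a-3p was at 15640 CPM, where they held 6166 to 7752. miR-223-3p was also highest there, at 5099 CPM.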

How the results depend on the processing

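None of the 12 member log2FC passed after adjustment in any of 360 refits, and none of 45 alternative ratio tests had an exact p under 0.05. Unadjusted, some refits of the miR-144 arms against control had p under 0.05. The lowest for miR-144-3p was 0.0073 in DN (edgeR without the 3 libraries) and 0.0316 in treated (edgeR with the block). For miR-144-5p it was 0.0273 in DN (limma-voom) and 0.0084 in treated (edgeR with the block). In the other member results the lowest was 0.104 (limma-voom). Directions were kept in all 30 alternatives for miR-451a in DN against control, for both miR-144 arms against control and for miR-486a-5p in treated against control. In treated against DN, miR-144-3p turned negative with RLE factors (−0.0043), library size only (−0.062), the 10 CPM filter (−0.0097), DESeq2 (−0.0046), limma-voom with sample weights (−0.29), rows of one name summed (−0.0083) and only the 2 groups compared (−0.023). Without control 2, DN 2 and DN 3 it was −0.51 and miR-144-5p −0.15. With limma-voom with sample weights, miR-144-5p was −0.24 and miR-451a −0.014 in that comparison. In treated against control, miR-451a was −0.10 with library size only, −0.17 with limma-voom with sample weights and −0.075 without those 3 libraries. The cause of these shifts was not tested.

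Leaving out 1 library in turn moved the log2FC of miR-486a-5p from −0.51 to 0.12 in DN against control (positive without control 2, DN 2 or DN 5) and from −0.66 to 0.015 in treated against DN (positive without DN 3). In treated against DN it moved miR-144-3p from −0.27 to 0.35 and miR-144-5p from −0.058 (without treated 1) to 0.50. In treated against control it moved miR-451a from −0.046 to 0.31, negative without control 2, treated 1 or treated 5. The ratio to miR-23a-3p moved from −0.14 to 0.42 in DN against control and from −0.20 to 0.43 in treated against DN. With miR-16-5p as the reference it was −0.28 in DN against control and −0.045 in treated against control, and without the 3 libraries it was −0.28 in treated against DN.

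For pairs of members without those 3 libraries, r was 0.43 for miR-451a and miR-144-3p (permutation p = 0.124), 0.81 for miR-451a and miR-486a-5p, 0.12 for miR-144-3p and miR-486a-5p, and 0.52 for miR-144-5p and miR-486a-5p. miR-451a and miR-486a-5p had r = 0.51 under library size only and 0.50 in deviations from group means (permutation p = 0.0377 and 0.0341).

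Over all entries edgeR called 0 in each comparison, with 47, 23 and 121 at an unadjusted p under 0.05. In DN against control the 10 CPM filter called 2, DESeq2 4, limma-voom with sample weights 91, the fit without the 3 libraries 51 and miR-451a as a covariate 1. In treated against control 24 were called by DESeq2, 106 by limma-voom with sample weights, 56 when only those groups were fitted and 50 without the 3 libraries. With 1 library left out, calls ranged from 0 to 6 in DN against control and from 0 to 7 in treated against control. Without DN 2 they were 6 and 7, without DN 3 6 and 3, and without control 2 1 in DN against control.

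Over all entries, replicate numbers did not pair the libraries: deviations of the 18 same-numbered pairs had r from −0.33 to 0.26, and 0 of 18 correlated best with their own number. With the replicate number as a block, 0 entries were called in each comparison, and the log2FC of miR-144-3p was 0.66 in DN against control and 1.08 in treated against control. In treated against control the unadjusted edgeR p with the block was 0.0316 for miR-144-3p (adjusted 0.244) and 0.0084 for miR-144-5p (adjusted 0.212). For miR-451a and miR-486a-5p it was 0.801 and 0.306. Depth did not limit the members, whose lowest count was 114.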
